A study of Homo sapiens with 10 samples.

Results

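Transcripts for 10 proteins of class II peptide loading and endosomal processing were followed in clones of U2932, an established cell line from a human diffuse large B cell lymphoma, which is a tumour of mature B lymphocytes. The members were taken by symbol: the invariant chain gene CD74, the HLA-DM genes HLA-DMA and HLA-DMB, the HLA-DO genes HLA-DOA and HLA-DOB, the protease genes CTSS, LGMN, CTSB and CTSD, and the reductase gene IFI30. All 10 were found among the 21174 Ensembl genes of the count table. The 5 CREBBP+/- libraries (Het_6 to Het_10) carried an altered copy of CREBBP, a histone acetyltransferase and transcriptional coactivator. The 5 CREBBP+/+ libraries (WT_1 to WT_5) carried both copies, and all 10 were grown in serum-supplemented RPMI with no treatment named in the labels. How the copy was altered, and whether each library is a separate clone or culture, is not stated in the labels. P-values therefore reflect only how far these libraries spread, which may in part be technical.

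Class II molecules are assembled in the endoplasmic reticulum with the invariant chain, which blocks the peptide groove and steers the complex to endosomes. There, proteases trim the invariant chain down to a fragment called CLIP, and HLA-DM exchanges CLIP for peptides of antigens that the same compartment has reduced and cut. HLA-DO, made mainly in B cells, binds HLA-DM and restrains it. The genes for the invariant chain, HLA-DM and the HLA-DO alpha chain are read in large part under CIITA, the transactivator of class II genes. CIITA is held at their promoters by factors bound to a conserved set of boxes that includes an inverted CCAAT box. The endosomal proteases also digest other cargo and are expressed in many cells that lack CIITA.

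The promoters of the 5 loading genes are shown because 4 of these genes had lower mean levels in CREBBP+/- libraries, at an unadjusted edgeR p under 0.05. Of the 10 members, 7 have an entry in the RefSeq promoter table (GRCh38.p14), and CTSS, LGMN and CTSB have none. Each line below gives the 140 bases that end just before the gene's start, 5′ to 3′ on the strand of the gene, which is the minus strand for all 5. The windows are chr5:150412911-150413050, chr6:32953098-32953237, chr6:32941029-32941168, chr6:33009592-33009731 and chr6:32817003-32817142. For CD74, HLA-DMA and HLA-DOB the RefSeq start lies inside the longer gene span of the GENCODE annotation given further on. Capitals mark CCAAT or its reverse complement ATTGG, and TGATG.
CD74: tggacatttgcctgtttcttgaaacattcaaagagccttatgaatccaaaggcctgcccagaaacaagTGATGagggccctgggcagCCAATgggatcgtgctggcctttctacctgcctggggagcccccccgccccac
HLA-DMA: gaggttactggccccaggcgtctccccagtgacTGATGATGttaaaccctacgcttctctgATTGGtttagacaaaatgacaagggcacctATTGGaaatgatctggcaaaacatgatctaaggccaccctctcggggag
HLA-DMB: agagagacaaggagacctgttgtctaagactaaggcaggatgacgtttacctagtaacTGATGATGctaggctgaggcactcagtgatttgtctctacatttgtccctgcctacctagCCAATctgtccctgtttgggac
HLA-DOA: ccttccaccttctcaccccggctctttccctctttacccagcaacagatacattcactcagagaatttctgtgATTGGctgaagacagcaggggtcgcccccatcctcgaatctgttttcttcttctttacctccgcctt
HLA-DOB: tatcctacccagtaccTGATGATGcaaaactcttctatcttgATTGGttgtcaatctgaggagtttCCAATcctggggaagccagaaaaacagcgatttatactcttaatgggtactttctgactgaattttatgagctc
All 5 windows held a CCAAT box on one strand or the other. So did 32% of the 35116 promoters of the table, searched on both strands over 250 bases upstream. TGATG was present in CD74, HLA-DMA, HLA-DMB and HLA-DOB, as it or its reverse complement was in 28.8% of all promoters. In HLA-DMA, HLA-DMB and HLA-DOB it stood as a pair that overlaps by 2 bases. The combination of TGATG with a CCAAT box at most 25 bases downstream was found in CD74, HLA-DMA and HLA-DOB, and in 1.84% of all promoters. The letters TGATG, and so the combination, were chosen after the promoters had been read, and the shares beside them are no test. HLA-DMB and HLA-DOA, among the 4 genes with lower levels, lacked the combination, while HLA-DOB, which was not among them, had it. Among the other members in the table, IFI30 had a CCAAT box further upstream and CTSD had neither motif.

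Total counts ranged from 10615977 to 23020694 in CREBBP+/- and from 16542932 to 21817971 in CREBBP+/+ libraries. CPM (counts of a gene per 1000000 reads) were scaled by TMM. CREBBP itself had 56.8 to 80.7 CPM in the CREBBP+/- group, against 103 to 136 CPM in the CREBBP+/+ group, without overlap. Libraries were cut into 3 clusters, a number set for the clustering, on genes other than CREBBP, the members and the class II genes. The cluster of Het_8, WT_1 and WT_2 and that of Het_6, Het_7, WT_3, WT_4 and WT_5 cross the genotypes. Het_9 and Het_10, both CREBBP+/-, form the last cluster. All 7 B cell markers examined were detected well, with summed levels of 2119 to 3640.5 CPM in CREBBP+/- libraries, against 2067 to 3691 CPM in CREBBP+/+ libraries. The 9 myeloid markers summed to 1.98 to 4.25 CPM in CREBBP+/- libraries, against 2.14 to 3.87 CPM in CREBBP+/+ libraries, with FCGR1A, MARCO, S100A8 and S100A9 at 0 counts in all 10. The 7 T cell markers summed to 8.34 to 22.8 CPM in CREBBP+/- libraries, against 7.77 to 28.4 CPM in CREBBP+/+ libraries, with CD3D, CD2 and CD5 at 0. The 6 stromal and epithelial markers, mostly EPCAM, summed to 14.6 to 27 CPM in CREBBP+/- libraries, against 2.40 to 25.7 CPM in CREBBP+/+ libraries, with COL1A2 at 0.

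The comparison of genotypes asks which of these transcripts differ when a CREBBP copy is altered. CD74, HLA-DMA, HLA-DMB and HLA-DOA were 1.49-fold to 1.66-fold lower in CREBBP+/- libraries, while HLA-DOB and the 4 detected endosomal genes were 1.05-fold to 1.16-fold lower, each with a 95% confidence interval that includes 0 on the log2 scale. LGMN was not detected. In RNA of whole cultures, fewer cells that express a gene and less RNA per cell cannot be told apart. In edgeR's quasi-likelihood test 0 of the 9 tested members, and 0 of 11961 genes (0%), had an adjusted p under 0.05. Before adjustment, 4 of the 9 members were lower at a p under 0.05, where 311 of 11961 genes (2.60%) were, and 0 were higher, against 2.38% of all genes (4.98% in either direction). DESeq2 called CD74 (adjusted p = 0.00876) and HLA-DMA (adjusted p = 0.0352) lower, 2 of 9 members against 0.157% of all genes with an adjusted p (0.268% in either direction), and limma-voom called 0 (0%). In a single simulated data set, the share of false genes among DESeq2's calls was above the 0.05 threshold and above that of edgeR and limma-voom. DESeq2's adjusted p-values may therefore be too small. The simulation gave every gene the same dispersion and had no library clusters, so the share of false calls in these libraries is not known. The median log2 fold change was -0.21 over the 9 members and -0.01 over all genes tested.

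**Figure D1:**
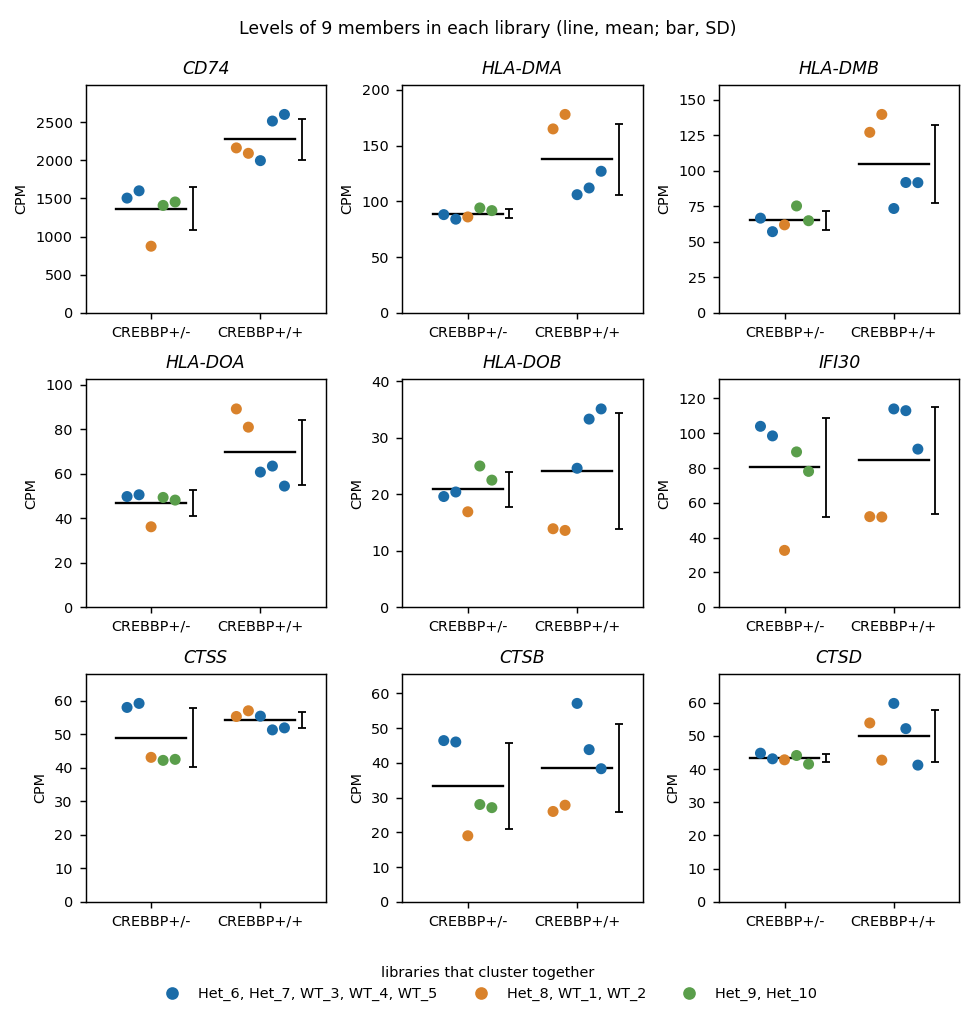
Level of each of 9 members (CPM, linear axis from 0) in every library, CREBBP+/- left and CREBBP+/+ right, coloured by library cluster; lines are means and bars SD, n = 5 each. CD74, HLA-DMA and HLA-DOA show no overlap between genotypes, while IFI30 is lowest in Het_8, WT_1 and WT_2.

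CD74, the invariant chain gene (ENSG00000019582, chromosome 5, 150401637 to 150412969, GRCh38), had 1504, 1599.5, 873, 1408 and 1453 CPM in Het_6, Het_7, Het_8, Het_9 and Het_10, against 2162, 2091, 1995, 2514 and 2601 CPM in WT_1 to WT_5. Every CREBBP+/- library lay below every CREBBP+/+ library, and Het_8 lay well under the other CREBBP+/- libraries. The means were 1367 ± 286 CPM in CREBBP+/- libraries, against 2272 ± 268 CPM in CREBBP+/+ libraries (SD, n = 5 each). CD74 had a log2 fold change of -0.73, with SE 0.16, an interval (95%) of -1.09 to -0.38 and an edgeR adjusted p of 0.671. Its unadjusted edgeR p ranked 14 among the 11961 genes. The DESeq2 call of CD74 was lost when any of 5 libraries was left out: the adjusted p was 0.0692 without Het_9, 0.0572 without Het_10, 0.052 without WT_1, 0.0789 without WT_4 and 0.0964 without WT_5.

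Both subunit genes of HLA-DM, the catalyst of peptide exchange, had lower mean levels in CREBBP+/- libraries, without passing edgeR's adjusted test, and kept close to each other. HLA-DMA, the alpha chain (ENSG00000204257, chromosome 6, 32948613 to 32969094), had 88.1, 84.0, 86.0, 94.1 and 91.7 CPM in Het_6 to Het_10, against 165, 178, 106, 112 and 127 CPM in WT_1 to WT_5. The CREBBP+/- libraries lay within a narrow band below all CREBBP+/+ libraries, of which WT_1 and WT_2 stood highest. HLA-DMA had a log2 fold change of -0.63 (SE 0.15, interval -0.95 to -0.31, edgeR adjusted p = 0.716). Its DESeq2 call was lost without Het_6, Het_7, Het_9, Het_10, WT_1, WT_2 or WT_5, with adjusted p from 0.0912 (without WT_2) to 0.245 (without WT_1).

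HLA-DMB, the beta chain (ENSG00000242574, chromosome 6, 32934629 to 32941028), had 66.6, 57.1, 61.9, 75.2 and 64.8 CPM in Het_6 to Het_10, against 127, 139.6, 73.4, 91.7 and 91.6 CPM in WT_1 to WT_5. Here the groups overlapped by 1 pair of libraries, since Het_9 lay just above WT_3. For HLA-DMB the log2 fold change was -0.69 (SE 0.17, interval -1.06 to -0.31, edgeR adjusted p = 0.842, DESeq2 adjusted p = 0.0732). The ratio of HLA-DMA to HLA-DMB reads was nearly constant, at 1.25 to 1.47 in CREBBP+/- and 1.22 to 1.45 in CREBBP+/+ libraries.

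The subunits of HLA-DO, the inhibitor of HLA-DM, gave different patterns over the libraries, and whether their changes differ was not tested. HLA-DOA, the alpha chain (ENSG00000204252, chromosome 6, 33004182 to 33009591), had 49.8, 50.6, 36.2, 49.4 and 48.2 CPM in Het_6 to Het_10, against 89.2, 81.0, 60.8, 63.5 and 54.5 CPM in WT_1 to WT_5. The groups did not overlap, with WT_1 and WT_2 again highest and Het_8 lowest. For HLA-DOA the log2 fold change was -0.58 (SE 0.15, interval -0.91 to -0.24, edgeR adjusted p = 0.842, DESeq2 adjusted p = 0.117).

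HLA-DOB, the beta chain (ENSG00000241106, chromosome 6, 32812763 to 32820466), had 19.6, 20.4, 16.9, 25 and 22.5 CPM in Het_6 to Het_10, against 13.9, 13.6, 24.6, 33.3 and 35.1 CPM in WT_1 to WT_5. The CREBBP+/- values lay inside the CREBBP+/+ range, and the CREBBP+/+ libraries split, with WT_1 and WT_2 the lowest of all 10. HLA-DOB had a log2 fold change of -0.21 (SE 0.27, interval -0.81 to 0.40, edgeR adjusted p = 0.988). WT_1 and WT_2 thus held the highest levels of HLA-DMA, HLA-DMB and HLA-DOA and the lowest of HLA-DOB. On the log2 scale, their mean minus that of WT_3, WT_4 and WT_5 was 0.58 for HLA-DMA, 0.65 for HLA-DMB and 0.51 for HLA-DOA, and -1.15 for HLA-DOB. Het_8, from the same cluster, had none of the high levels, and its HLA-DOB level was above that of WT_1 and WT_2.

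Of the members that were lower before adjustment, 3 (CD74, HLA-DMA and HLA-DOA) had every CREBBP+/- library below every CREBBP+/+ library, against 0.594% of all genes tested, and none of the 9 had the opposite arrangement, against 0.426%. CIITA (ENSG00000179583, chromosome 16, 10866222 to 10943021) was arranged in the same way, with 105, 110.1, 85.8, 71.1 and 84.7 CPM in Het_6 to Het_10 against 247, 191, 136, 157 and 167 CPM in WT_1 to WT_5 (log2 fold change -0.98, SE 0.17, edgeR adjusted p = 0.395). WT_1 and WT_2 had the highest CIITA levels, as they had for HLA-DMA, HLA-DMB and HLA-DOA, whereas CD74 was highest in WT_5 (2601 CPM) and WT_4 (2514 CPM). Among CREBBP+/- libraries, Het_9 had the lowest CIITA level but the highest levels of HLA-DMA (94.1 CPM) and HLA-DMB (75.2 CPM). Het_7 had the highest CIITA level with the lowest HLA-DMA (84 CPM) and HLA-DMB (57.1 CPM), but the highest HLA-DOA (50.6 CPM) and CD74 (1599.5 CPM). It also had the highest levels of the class II chain genes HLA-DRA (422 CPM) and HLA-DPB1 (64.2 CPM) in that group. These orders rest on small gaps for HLA-DMA, which spanned 84 to 94.1 CPM in the group, and Het_9 was the shallowest library.

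The ratio of HLA-DM to HLA-DO reads, the summed reads of both chains of each, did not differ between genotypes beyond its spread. It was 2.23, 1.99, 2.79, 2.28 and 2.21 in Het_6 to Het_10, against 2.83, 3.36, 2.10, 2.10 and 2.44 in WT_1 to WT_5. The groups overlapped, and the highest 3 values belonged to WT_2, WT_1 and Het_8, the libraries of 1 cluster. Means were 2.30 ± 0.295 in CREBBP+/- and 2.57 ± 0.536 in CREBBP+/+ libraries (SD, n = 5 each). The difference of mean log2 ratios was -0.15 (exact two-sided permutation p = 0.357, 0.603 adjusted over 2 ratios), and the shifts that this test does not reject at 0.05 run from -0.55 to 0.19. Per kilobase of exon the ratio was 2.23 ± 0.270 in CREBBP+/- and 2.63 ± 0.766 in CREBBP+/+ libraries. HLA-DOB shares 30.4% of its exon bases with another gene on the same strand, and how such reads were counted is not stated. Every ratio that uses HLA-DOB reads carries that uncertainty.

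Taken chain by chain, the alpha chains gave a nearly level ratio and the beta chains did not. HLA-DMA over HLA-DOA was 1.66 to 2.38 in CREBBP+/- and 1.75 to 2.33 in CREBBP+/+ libraries. HLA-DMB over HLA-DOB was 2.80 to 3.66 in CREBBP+/- libraries, and in CREBBP+/+ libraries it was 9.15 in WT_1 and 10.3 in WT_2 but 2.61 to 2.99 in WT_3, WT_4 and WT_5. Within HLA-DO, the ratio of alpha to beta chain reads was 1.98 to 2.54 in CREBBP+/- libraries, 6.40 and 5.96 in WT_1 and WT_2, and 1.56 to 2.47 in WT_3, WT_4 and WT_5. Het_8 had 2.14, unlike WT_1 and WT_2 with which it clusters. The ratios of single chains were chosen after the values had been seen and are given without a test.

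**Figure D2:**
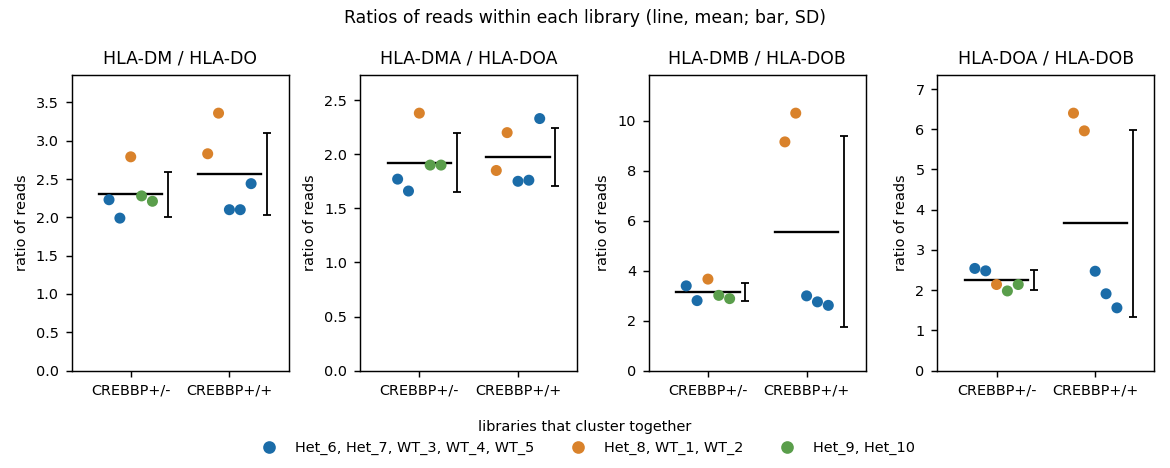
Ratios of reads within each library (linear axes from 0), CREBBP+/- left and CREBBP+/+ right, coloured by library cluster; lines are means and bars SD, n = 5 each. HLA-DM over HLA-DO overlaps between genotypes, and WT_1 and WT_2 stand apart where HLA-DOB is the denominator.

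The ratio of CD74 to HLA-DM reads, the substrate chaperone over the catalyst, likewise overlapped between genotypes. It was 9.72, 11.3, 5.90, 8.31 and 9.28 in Het_6 to Het_10, against 7.40, 6.58, 11.1, 12.3 and 11.9 in WT_1 to WT_5. Het_8, WT_2 and WT_1 had the lowest 3 values. The difference of mean log2 ratios was -0.13 (exact two-sided permutation p = 0.603, also 0.603 adjusted over 2 ratios, shifts not rejected from -0.71 to 0.49).

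The detected proteases, whose genes many cells express without CIITA, and the reductase had intervals that include a log2 fold change of 0. CTSS, the cysteine protease that makes the last cuts in the invariant chain in B cells (ENSG00000163131, chromosome 1, 150730079 to 150765957), had 58.0, 59.2, 43.1, 42.2 and 42.5 CPM in Het_6 to Het_10, against 55.3, 57.0, 55.4, 51.3 and 51.9 CPM in WT_1 to WT_5. The CREBBP+/- libraries split, with Het_6 and Het_7 above all CREBBP+/+ libraries and Het_8, Het_9 and Het_10 below all of them. CTSS had a log2 fold change of -0.14 (SE 0.12, interval -0.41 to 0.12, edgeR adjusted p = 0.988).

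IFI30, the thiol reductase that opens disulfide bonds of antigens (ENSG00000216490, chromosome 19, 18173162 to 18178117), had 104, 98.5, 32.7, 89.3 and 78.1 CPM in Het_6 to Het_10, against 52.1, 51.9, 114, 113 and 90.9 CPM in WT_1 to WT_5. Low levels were found in Het_8, WT_1 and WT_2, in both genotypes, and the other 7 libraries had 78.1 CPM or more. The log2 fold change was -0.07 (SE 0.33, interval -0.80 to 0.66, edgeR adjusted p = 0.99), and its sign turned when Het_8 (0.13), WT_3 (0.07) or WT_4 (0.06) was left out.

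CTSB, a cysteine protease (ENSG00000164733, chromosome 8, 11842524 to 11869533), had 46.4, 46.0, 19, 28 and 27.1 CPM in Het_6 to Het_10, against 26, 27.8, 57.1, 43.8 and 38.3 CPM in WT_1 to WT_5. The 5 libraries of the cluster of WT_3 had 38.3 CPM or more and the other 5 had 28 CPM or less, so the levels followed the clusters. The log2 fold change was -0.21 (SE 0.29, interval -0.85 to 0.42, edgeR adjusted p = 0.988). CTSD, the aspartic protease of lysosomes (ENSG00000117984, chromosome 11, 1752752 to 1764573), had 41.5 to 44.8 CPM in CREBBP+/- libraries, against 41.2 to 59.8 CPM in CREBBP+/+ libraries, which overlapped. Its log2 fold change was -0.21 (SE 0.11, interval -0.45 to 0.04, edgeR adjusted p = 0.986).

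LGMN, the asparagine endopeptidase legumain (ENSG00000100600, chromosome 14, 92703807 to 92748679), had 0 counts in all 10 libraries. A count of 0 allows up to 3 counts in a library, or 0.13 CPM in the deepest and 0.28 CPM in the shallowest library, for counting error only.

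**Figure D3:**
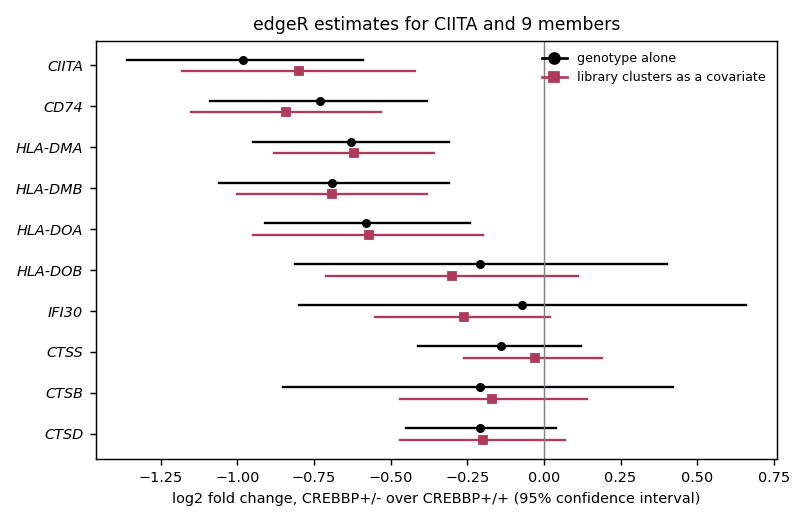
Log2 fold change of CREBBP+/- over CREBBP+/+ libraries from edgeR, for CIITA and 9 members, with genotype alone (circles) and with library clusters as a covariate (squares). Lines are 95% confidence intervals worked out from the F statistic of each fit. In both fits the intervals of CIITA, CD74, HLA-DMA, HLA-DMB and HLA-DOA lie below 0 and those of HLA-DOB, IFI30, CTSS, CTSB and CTSD include 0. Het_9 and Het_10, without a CREBBP+/+ library in their cluster, add nothing to the genotype estimates of the fit with clusters.

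Compared per kilobase of exon, CD74 was by far the most abundant member, with 302 ± 63.1 CPM per kb in CREBBP+/- and 502 ± 59.3 CPM per kb in CREBBP+/+ libraries (SD, n = 5 each). HLA-DMA followed with 35.2 ± 1.64 and IFI30 with 34.4 ± 12.2 CPM per kb in CREBBP+/- libraries, which do not differ beyond their spread, and in CREBBP+/+ libraries they had 54.6 ± 12.8 and 36.0 ± 13.3 CPM per kb. HLA-DMB (14.1 ± 1.45), HLA-DOA (11.7 ± 1.51) and HLA-DOB (10.6 ± 1.55) came next in CREBBP+/- libraries, against 22.7 ± 5.99, 17.5 ± 3.66 and 12.2 ± 5.20 CPM per kb in CREBBP+/+ libraries. CTSD, CTSS and CTSB had 7.59 ± 0.220, 7.12 ± 1.28 and 3.16 ± 1.17 CPM per kb in CREBBP+/- and 8.76 ± 1.38, 7.86 ± 0.359 and 3.66 ± 1.20 CPM per kb in CREBBP+/+ libraries. These levels divide by the union of all annotated exons, so genes with long alternative exons come out low.

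The members also differed in how their variation was divided. Genotype held 70.1% of the sum of squares of log2 CPM over the 10 libraries for CD74, 66.3% for HLA-DMA, 61.4% for HLA-DMB and 60.3% for HLA-DOA, against a median of 6.03% over all genes tested. For HLA-DOB, IFI30, CTSB, CTSS and CTSD it held 1.36%, 0.595%, 6.07%, 19.2% and 30.0%. The library clusters held 87.8% for IFI30, 84.6% for CTSB, 65.4% for HLA-DOB and 60.7% for CTSS, against a median of 63.5%, and 11.4% to 33.4% for the other 5 detected members. These shares are a description, and genotype and cluster overlap in part because Het_9 and Het_10 have no CREBBP+/+ library beside them.

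Within clusters, CD74, HLA-DMA, HLA-DMB and HLA-DOA kept their direction. On the log2 scale, Het_8 lay below WT_1 and WT_2 by differences of -1.28 for CD74, -0.99 for HLA-DMA, -1.11 for HLA-DMB and -1.23 for HLA-DOA. In the cluster of 5, Het_6 and Het_7 differed from WT_3, WT_4 and WT_5 by -0.60, -0.42, -0.47 and -0.25 for the same genes. These are values of 1 and 2 CREBBP+/- libraries and have no test. For HLA-DOB the difference was 0.29 between Het_8 and its cluster mates and -0.61 in the cluster of 5. With the clusters as a covariate in edgeR, the log2 fold changes were -0.84 for CD74, -0.62 for HLA-DMA, -0.69 for HLA-DMB, -0.57 for HLA-DOA and -0.30 for HLA-DOB (adjusted p = 0.168, 0.168, 0.178, 0.274 and 0.519). In that fit 4 of 9 members were lower at an unadjusted p under 0.05, against 7.67% of all genes.

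The 4 HLA-DM and HLA-DO genes lie within 197 kb of chromosome 6 (32812763 to 33009591), in the order HLA-DOB, HLA-DMB, HLA-DMA and HLA-DOA, with genes of class I presentation and BRD2 among them. All 11 genes of the count table in this stretch were tested. The peptide transporter genes TAP2 (log2 fold change -0.01, SE 0.09) and TAP1 (-0.15, SE 0.07), and the immunoproteasome genes PSMB8 (0.19, SE 0.24) and PSMB9 (-0.28, SE 0.28), lie between HLA-DOB and HLA-DMB and had intervals that include 0. BRD2, a bromodomain protein gene between HLA-DMA and HLA-DOA, had 518 ± 66.4 CPM in CREBBP+/- libraries, against 529 ± 41.0 CPM in CREBBP+/+ libraries (SD, n = 5 each) and a log2 fold change of -0.03 (SE 0.10, interval -0.26 to 0.20). The genes in this stretch whose intervals lay below 0 were HLA-DMB, HLA-DMA, HLA-DOA and ENSG00000248993, a gene annotated across HLA-DMA and HLA-DMB.

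**Figure D4:**
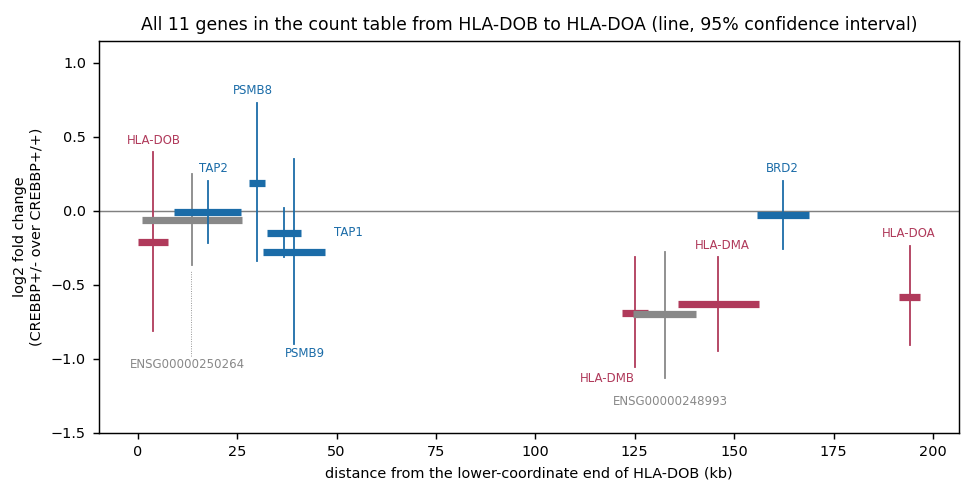
Log2 fold change (CREBBP+/- over CREBBP+/+) of the 11 genes of the count table from HLA-DOB to HLA-DOA against distance in kb; thick bars span each gene and thin lines are 95% confidence intervals, with members in red, genes without a symbol in grey and others in blue. HLA-DMB, HLA-DMA and HLA-DOA lie between -0.69 and -0.58, while BRD2 between HLA-DMA and HLA-DOA lies at -0.03.

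Some member counts are uncertain because their exons are shared with other annotated genes of the table on the same strand. ENSG00000268173 covers 42.5% of the exon bases of IFI30, and had 101 ± 27.4 CPM in CREBBP+/- against 104 ± 32.4 CPM in CREBBP+/+ libraries (SD, n = 5 each). It too was lowest in Het_8 (53.5 CPM), WT_2 (68.1 CPM) and WT_1 (72.0 CPM). ENSG00000250264 covers 30.4% of HLA-DOB, and another gene covers 22.9% of CTSD. ENSG00000248993 covers 6.3% of HLA-DMA and 9.5% of HLA-DMB, and had 33.0 ± 2.85 CPM in CREBBP+/- libraries, against 53.6 ± 16.8 CPM in CREBBP+/+ libraries (log2 fold change -0.70, SE 0.19). BRD2, on the opposite strand, covers 2.2% of HLA-DMA. Whether reads in shared exons were counted, and whether by strand, is not stated in the sources used here.

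Other genes of the pathway were taken from lists chosen with earlier results of these data known. For the lists of proteases, inhibitors, traffic and lysosome genes, the tested genes named are the 3 with the smallest unadjusted edgeR p. Of 15 other cathepsins and related proteases, 10 were tested, 0 passed after adjustment, and before adjustment TPP1, a tripeptidyl peptidase of lysosomes, was lower (log2 fold change -0.20, SE 0.08, edgeR adjusted p = 0.977) and CTSO, a cysteine protease, was higher (1.63, SE 0.44, edgeR adjusted p = 0.842). CTSO was scarce, with 0.82 to 3.22 CPM in CREBBP+/- libraries, against 0.313 to 0.818 CPM in CREBBP+/+ libraries. NAPSA, an aspartic protease, had 1.63 to 11.7 CPM in CREBBP+/- libraries, against 5.67 to 13.4 CPM in CREBBP+/+ libraries (-0.55, SE 0.45). CTSE, CTSG and CTSL had 0 counts in all libraries.

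Of 7 protease inhibitors, 4 were tested and 0 passed before or after adjustment. Among them SERPINB1, an inhibitor of neutrophil-type serine proteases, had 66.8, 68.8, 13.0, 60.0 and 51.5 CPM in Het_6 to Het_10, against 11.5, 12.7, 78.2, 48.6 and 59.5 CPM in WT_1 to WT_5. Its 3 low libraries were Het_8, WT_1 and WT_2, as for IFI30. SERPINB9, the inhibitor of granzyme B, was lowest in the same 3 libraries, with 66.4 CPM in Het_8 and 81.5 and 73.4 CPM in WT_1 and WT_2. CSTB, a cystatin, had 52.4 to 89.5 CPM in CREBBP+/- libraries, against 52.4 to 85.9 CPM in CREBBP+/+ libraries.

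Of 13 genes of class II traffic and turnover, 11 were tested and 0 passed before or after adjustment. The smallest p-values were those of UNC93B1, a chaperone of endosomal Toll-like receptors (-0.46, SE 0.21), MYO1E, a motor protein (0.22, SE 0.18), and CD37, a tetraspanin (-0.33, SE 0.27). Of 14 genes of the lysosome membrane, its proton pump and its regulators, 13 were tested and 1 was lower before adjustment, the pump subunit ATP6V0C (-0.27, SE 0.12, edgeR adjusted p = 0.977), with ATP6V1A at 0.16 (SE 0.11) and LAMP2 at 0.26 (SE 0.18). All 18 lysosomal hydrolases and related proteins were tested, 0 passed before or after adjustment, and 9 had an estimate below 0 and 9 above. SGSH, NPC1 and NPC2 had 0.30 (SE 0.16), 0.21 (SE 0.13) and -0.13 (SE 0.12). Median log2 fold changes were -0.12 for the other proteases, 0.27 for inhibitors, -0.03 for traffic, 0.01 for the lysosome membrane and -0.01 for hydrolases, beside -0.01 over all genes.

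Among the class II chains and their factors, 8 of 11 genes were lower at an unadjusted edgeR p under 0.05, against 2.60% of all genes, and 0 passed after adjustment. DESeq2 called 7 of the 11 genes lower, against 0.157% of all genes. The estimates of 8 genes lay below 0 and those of 3 above, with a median log2 fold change of -1.08. HLA-DRA, which encodes the HLA-DR alpha chain, had a log2 fold change of -1.09 (SE 0.19) and HLA-DPB1 one of -1.17 (SE 0.17). The estimates for CD74, HLA-DM and HLA-DOA were nearer to 0 than these, but HLA-DRA and HLA-DPB1 were named for their small p-values. Another chain gene, HLA-DPA1, had a log2 fold change of -0.79, close to the -0.73 of CD74. Whether the estimates for the loading genes differ from those of the chains was not tested.

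Likeness of pattern was measured as the root mean square distance between log2 CPM values centred on each gene, over 10 libraries and genes of at least 1 CPM on average. CD74 was nearest to CREBBP (0.157), then to a gene without a symbol (0.177), HLA-DPA1 (0.190), TMSB4X (0.191) and RAC2 (0.221), where the median gene lay at 0.520. CD74 and CREBBP both had a log2 fold change of -0.73, so their small distance in part restates the difference between genotypes. HLA-DMA lay farther from CD74 (0.348) than from HLA-DMB (0.0874) and HLA-DOA (0.175). Outside the members, HLA-DMA was nearest to ENSG00000248993 (0.0847), with which it shares exons, and then to APRT (0.167), OIP5 (0.173), TRAPPC2L (0.178) and INPP5D (0.184). HLA-DMB was nearest to ENSG00000248993 (0.0742), INPP5D (0.196), CDIP1 (0.202), RAP1A (0.217) and OIP5 (0.220).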

How the data were processed

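RNA of 10 libraries was sequenced (TruSeq RNA kit, per the labels' protocols). The file deposited by the authors holds unnormalised counts of reads for each Ensembl gene, 1 column per library. GRCh38, STAR, featureCounts, DESeq2 and FastQC are named, without versions, in the submitters' processing notes. Options of counting, annotation and strand use are not stated there. Deposited counts from 10000 upward carry only 4 significant digits. The columns Het_6 to Het_10 match no labelled title by number and were used as members of their group.

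Counts were tested with edgeR 4.0.16 in R 4.3.3 (quasi-likelihood F-test, TMM, robust dispersions, filterByExpr with minimum count 10 and minimum total 15, which left 11961 genes). P-values are two-sided, adjusted by Benjamini-Hochberg over all genes tested, with a threshold of 0.05. Log2 CPM used a prior count of 2. DESeq2 1.42.0, limma-voom (limma 3.58.1), other scalings and filters, library clusters (average linkage, 3 clusters) and leaving out libraries were alternatives. The edgeR, DESeq2 and limma steps were tested on a single simulated data set, with the same dispersion for every gene and no library clusters. There, DESeq2's calls held a larger share of false genes than its threshold and than those of edgeR and limma. Ratios were compared by an exact permutation test over 252 assignments (SciPy 1.17.1), whose smallest possible p is 0.00794. Coordinates and exon lengths come from GENCODE 44 on GRCh38, and 20804 of 21174 identifiers (98.3%) had a symbol. Named genes were the members, CREBBP and CIITA, the 3 smallest p of each list (given in part for marker lists), and the 5 genes nearest in pattern to CD74, HLA-DMA and HLA-DMB. Members, lists and clusters were chosen with earlier results of these data known.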

Additional observations from a re-analysis of the deposited data

Results flagged for a closer look

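For each member, the highest and lowest library of a genotype were checked for a gap to their neighbour that takes up an unusually large part of the range of the 5 log2 values. Of 22 groups of values examined (9 members and 2 ratios in each genotype), 3 met this, where chance gives about 1 in 20 (1 of 22), and all 3 concerned Het_8. The groups share the same 5 libraries of a genotype and are not independent, so 1 library can give several flags and 3 against 1 is no test. Among CREBBP+/- libraries Het_8 was lowest, with a wide gap, in CD74 (log2 CPM 9.77, next 10.46), HLA-DOA (5.18, next 5.59) and IFI30 (5.04, next 6.29). Het_8 is the CREBBP+/- library that clusters with WT_1 and WT_2. IFI30 was also low in WT_1 and WT_2, whereas CD74 and HLA-DOA were not.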

How the results depend on the processing

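The count of members with edgeR adjusted p under 0.05 stayed at 0 under the other scalings and filters, limma-voom, library clusters as a covariate and leaving out 1 library, and DESeq2 called 2 members. Over all genes, edgeR called 0 to 1 when 1 library was left out (1 without Het_6), and DESeq2 called 34. DESeq2 fits without 1 library, chosen after seeing the data, called 12 to 120 genes and 0 to 3 members. For genes they gave 120 without Het_8 and 107 without WT_3, but 15 without Het_10, 12 without Het_9, 14 without WT_1, 18 without WT_4 and 19 without WT_5. For members they gave 3 without WT_3, 2 without Het_8, 1 without Het_6, Het_7, WT_2 or WT_4, and 0 without Het_9, Het_10, WT_1 or WT_5. The count of members lower at an unadjusted p under 0.05 was 4 to 5 when 1 library was left out, and that of members without overlap 3 to 4. Shares over all genes were not worked out for these smaller sets, so a rise in either count cannot be read as a result about the members.

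Log2 fold changes with 1 library left out ran from -0.80 to -0.61 for CD74, -0.71 to -0.52 for HLA-DMA, -0.79 to -0.56 for HLA-DMB and -0.65 to -0.47 for HLA-DOA. They ran from -0.36 to -0.03 for both HLA-DOB and CTSB, -0.22 to -0.09 for CTSS, -0.27 to -0.13 for CTSD and -0.20 to 0.13 for IFI30, whose sign turned without Het_8 (0.13), WT_3 (0.07) or WT_4 (0.06). Within clusters the sign turned for HLA-DOB (0.29 in Het_8 against WT_1 and WT_2) and, for Het_6 and Het_7 against WT_3, WT_4 and WT_5, for CTSS (0.15) and CTSB (0.02). The log2 difference of the HLA-DM to HLA-DO ratio ran from -0.22 to -0.04 and that of CD74 to HLA-DM from -0.27 to 0.01 (0.01 without Het_8). The cause of these turns was not tested. No paired analysis was possible because the CREBBP+/- columns carry the numbers 6 to 10, which no CREBBP+/+ column shares.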
